A study of Homo sapiens with 20 samples.

Results

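The comparison described here asks whether a guide RNA was lost, or gained, to a different extent in HAP1 cells than in HEK293FT cells over 14 days of RNA targeting by RfxCas13d. Its members are the 17571 guides found in the tables of both cell lines, of 63972 distinct guide names in the series. Of these, 16572 carry a targeting number and 999 are non-targeting controls. The 17690 guides of the HAP1 table include 119 that the HEK293FT table lacks, and 1 guide of the HEK293FT table is missing from that of HAP1. For each guide the log2 change from day 0 to day 14 in HEK293FT was subtracted from that in HAP1. A difference below 0 therefore means that the guide ended relatively lower in HAP1, and a difference above 0 that it ended relatively lower in HEK293FT or rose more in HAP1.

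The study measured guide abundance by amplicon sequencing of guide cassettes in genomic DNA from pooled screens. The HAP1 line is near-haploid and derives from a chronic myelogenous leukaemia, while HEK293FT derives from human embryonic kidney. Both had been engineered to express a nuclear form of RfxCas13d under doxycycline control, and both received the same lentiviral guide library in separate infection replicates. All 4 groups compared here, day 0 and day 14 in each line, share that genotype, the puromycin selection and the doxycycline treatment at 1 µg/ml, with puromycin and blasticidin kept in the medium. Each group has 2 libraries, and cells were passaged at a guide representation above 1000-fold. HAP1 was grown in Iscove's medium and HEK293FT in Dulbecco's, and their values were deposited in separate tables, so the line, its medium and any processing of its table cannot be told apart in any difference below. Whether either line was 1 clone is not given in the sources used here.

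RfxCas13d is an RNA-guided nuclease that cuts RNA and leaves the DNA intact. A guide whose target transcript is needed for growth lowers the share of the cells that carry it, so the guide becomes rarer among the integrated cassettes as the culture is passaged. In such dropout screens many transcripts are needed in most lines, while others matter in some lines and not in others. Genomic abundance cannot separate fewer cells from slower division, and it does not show how far the target RNA was lowered. No table used here links the guide numbers to sequences or genes, and guides therefore go by number.

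The deposited values are normalised signal, and their depth is unknown. Library totals over these guides lay between 2808570 and 3300630, and scaling on the non-targeting guides moved no library by more than 0.02 on the log2 scale. The 2 libraries of a group correlated at 0.936 to 0.951 across guides. These correlations include the spread of guide levels, with day 0 medians of 115 in a scarce and 459 in an abundant class of targeting guides. The second library less the first had a standard deviation across guides of 0.30 and 0.41 in HAP1 at day 0 and day 14. In HEK293FT it was 0.26 and 0.27. In HAP1 at day 14 the lowest values were 0.94 and 1.1, so the size of the deepest falls depends on how such low values are treated.

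In the main fit, guides were called with a lower day effect in HAP1 far more often than with a higher one. In the limma test of the interaction of day and line, with a Benjamini-Hochberg adjusted p under 0.05 over all guides, 694 targeting guides were lower in HAP1 and 127 were higher. Over all guides tested, 3.96% were called below 0 and 0.746% above 0. The targeting guides had a median difference of 0.04 and a standard deviation of 0.64 across guides. Their 5th percentile was -1.13 and their 95th 0.65, so a tail on the lower side set the balance of calls. Of the called guides, 329 had a difference below -2 and 37 below -4, against 8 above 2 and none above 4. The balance of calls depended on the fit. With a block of replicate numbers crossed between the days, chosen after seeing the data, 1277 guides were lower and 864 higher. These counts include non-targeting guides.

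The numbers of calls depended on single libraries. Guides lower in HAP1, 695 with the non-targeting guides, numbered 386 without the first and 395 without the second HEK293FT library of day 0. They numbered 409 without the second HAP1 library of day 0 and 430 without the second HEK293FT library of day 14. Guides higher in HAP1, 131 in all, numbered 280 without the second HAP1 library of day 14. They numbered 54 and 69 without the first and the second HEK293FT library of day 14, 58 and 74 without those of day 0, and 74 without the first HAP1 library of day 0.

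The non-targeting guides were the background measured in the same way. Their differences had a median of -0.002 and a standard deviation of 0.35, and ranged from -1.70 to 1.16. The scaling holds their centre near 0, and only their spread is informative. In the same limma test 5 of the 999 were called, 1 lower and 4 higher in HAP1, or 0.501%. At an unadjusted p under 0.05 the count was 121, or 12.1% where 5% is nominal. None lay below -2, where 401 targeting guides lay.

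Most guides that were lower in HAP1 moved little in HEK293FT. Within HAP1, 8.27% of all guides fell and 2.09% rose between the days. Within HEK293FT, 0.831% fell and 0.00569%, a single non-targeting guide, rose. Of the 694 guides lower in HAP1, 626 fell in HAP1 and were not called in HEK293FT, 64 fell in both lines and 4 were called in neither. HAP1 had a median change of -2.30 over these guides and HEK293FT one of -0.24. In HEK293FT 491 of them, or 70.7%, changed by less than 0.5 in either direction. The HEK293FT values nevertheless leaned downwards, with 526 of the 694, or 75.8%, below 0 and 80 below -1. Over all targeting guides the HEK293FT change had a median of -0.03 and a 5th percentile of -0.50. The fit has 1 spread for both lines, so a guide not called in HEK293FT need not be unmoved there. For example, gID_13164 changed by -2.05 (SE 0.61) in HEK293FT and was not called.

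Most guides that fell in HEK293FT fell in HAP1 too, 114 of 146. Among those 114, 64 fell further in HAP1, 1 fell further in HEK293FT, and for 49 the difference between the lines did not pass the test. These lists come from 1 fit and share its spread, so the counts describe the calls and are no separate test.

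The 10 guides with the lowest differences, among those that passed the test with a mean signal of at least 50 at day 0 in each line, were nearly gone from HAP1 and still present in HEK293FT. The guide gID_12624 went from signals of 281 and 403 at day 0 to 8.03 and 2.19 at day 14 in HAP1. In HEK293FT it went from 355 and 350 to 195 and 273. The day 14 values of HAP1 lay far below all others, and the difference was -5.72 ± 0.61 (SE, n = 2 libraries per group; limma adjusted p = 0.000192).

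The guides gID_07679 and gID_07680, neighbours in number, were scarcer from the start. In HAP1 gID_07680 went from 54.5 and 118 to 1.03 and 1.1, and in HEK293FT from 148 and 188 to 95.7 and 89.9. The 2 HAP1 libraries of day 0 differed by more than 2-fold, yet neither came close to the values of day 14. Its difference was -5.40 ± 0.68 and that of gID_07679 was -5.05 ± 0.76. With 10 added to every signal they were -2.26 and -2.35, both still past the threshold.

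Replicates in HAP1 at day 14 were not always close. For gID_11904 they were 22.3 and 2.21, after 395 and 591 at day 0, while HEK293FT went from 567 and 605 to 251 and 210. All HAP1 pairings of a day 0 with a day 14 library lay below those of HEK293FT, but the difference of -4.76 ± 0.99 passed the limma threshold at an adjusted p of 0.0130 and missed it with a robust variance prior (0.273). It missed it as well when the second HAP1 library of day 0, either HEK293FT library of day 0 or the first of day 14 was left out, with adjusted p between 0.0506 and 0.0646 from limma. By contrast gID_12504 went from 408 and 422 to 9.77 and 12.9 in HAP1 and from 478 and 529 to 395 and 464 in HEK293FT. Its libraries were close within each group, and the difference of -4.98 ± 0.24 passed at a limma adjusted p of 8.98e-07.

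The guide gID_13164 went from 520 and 546 to 108 and 154 in HEK293FT, a change of -2.05 that was not called. In HAP1 it fell from 321 and 556 to 1.19 and 8.01, a change of -7.10, and with a robust variance prior its difference of -5.05 no longer passed the limma test (adjusted p = 0.165). The remaining guides of the 10 were gID_04247, gID_04248, gID_04228 and gID_06320, with differences from -5.00 to -4.45. Their HEK293FT changes lay between -0.96 and -0.32. Of these, gID_04228 missed the threshold without the second HAP1 library of day 0, without either HEK293FT library of day 0 and without the second HEK293FT library of day 14, with limma adjusted p between 0.0822 and 0.0961. The guide gID_04247 missed it without either HEK293FT library of day 0 and gID_04248 without the first HEK293FT library of day 0 or the second of day 14, with limma adjusted p between 0.0518 and 0.0602.

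On the other side the largest difference belonged to a guide that was lost in HEK293FT alone. The guide gID_04391 went from 280 and 248 to 25.3 and 29.2 in HEK293FT, and from 456 and 443 to 521 and 476 in HAP1. The lines did not overlap at day 14, nor at day 0, where HEK293FT was already lower. The difference in the day effect was 3.42 ± 0.21 (limma adjusted p = 4.68e-06). The guide gID_06366 behaved likewise, going from 294 and 469 to 45.5 and 44.0 in HEK293FT and from 402 and 487 to 460 and 441 in HAP1. Its difference was 3.07 ± 0.28. Another guide of this kind, gID_13011, fell by 1.96 in HEK293FT and changed by 0.26 in HAP1.

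Most guides on this side rose in HAP1 instead. The 127 called higher were 0.766% of the targeting guides, where 0.400% of the non-targeting ones were called higher. Of the 127, 85 rose in HAP1 and were not called in HEK293FT, 15 fell in HEK293FT and were not called in HAP1, and 25 were called in neither line. One of the others fell in both lines and one, gID_01083, rose in HAP1 and fell in HEK293FT. The median of the 127 guides was 0.76 in HAP1 and -0.35 in HEK293FT, with 123 above 0 in HAP1 and 114 below 0 in HEK293FT. Choice by a high difference favours these signs, and all 4 non-targeting guides called higher had them too. The signs are therefore no separate result. The guide gID_08089 rose in HAP1 from 85.5 and 125 to 687 and 523, while HEK293FT went from 104 and 96.2 to 56.3 and 82.9. Its difference was 3.08 ± 0.32. The next numbers, gID_08090 and gID_08091, had differences of 2.72 and 2.22, and the further guides of the 10 were gID_01082, gID_01083, gID_12009 and gID_13853, between 1.88 and 2.05. Among these gID_01082 missed the threshold without the first HEK293FT library of day 0, with a limma adjusted p of 0.0590.

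Guides were also compared in sets of 4 consecutive numbers. The difference correlated at 0.769 between neighbouring guides within a set and at 0.113 across a set border, over 12326 and 4111 pairs, and the HEK293FT change alone at 0.434 and 0.0625. These correlations are across guides of the same libraries and have no test. Numbers within a set mostly follow the HAP1 change, which fell from place to place in 78.8% of complete sets. Neighbours in a set are therefore close in rank, which bears on both correlations by an amount that was not tested. A set is 4 consecutive numbers with at least 3 guides present, and its value in a library is the mean log2 signal of its guides. How the numbers were given out is not documented in the sources used here, and guides of a set are no replicates of a condition. Of 4174 targeting sets, 338 were lower in HAP1 and 97 higher in the limma interaction test. Over all 4424 sets, non-targeting ones included, 7.66% were called below 0 and 2.22% above 0. Among 250 sets of non-targeting guides 1 was called in each direction, and their differences lay between -0.43 and 0.43.

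The sets lower in HAP1 had a median difference of -1.17, over a range from -4.48 to -0.40, with median changes of -1.42 in HAP1 and -0.22 in HEK293FT. Of the 338, 287 lay below 0 in HEK293FT, or 84.9%, and 41 were called as falling there. Over all targeting sets the median HEK293FT change was itself below 0, at -0.03. The sets higher in HAP1 differed by less, with a median of 0.54, of 0.37 in HAP1 and of -0.18 in HEK293FT. A difference of at least 1 in size left 201 lower and 8 higher, so the calls above 0 were mostly small. Within HAP1, 13% of all sets fell and 5.36% rose, and within HEK293FT 1.76% fell and 0% rose. In every called targeting guide and set, all 4 pairings of a day 14 with a day 0 library in HAP1 lay on 1 side of all 4 in HEK293FT. That alone was common, since the pairings lay apart with HAP1 lower in 14.5% and higher in 16% of guides, and in 16.2% and 22% of sets.

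Counts of sets also moved when single libraries were left out, with the same limit. Sets lower in HAP1, 339 with the non-targeting ones, numbered 215 and 218 without the first and the second HEK293FT library of day 0. Sets higher in HAP1, 98 in all, numbered 30 and 38 without those same libraries, 44 and 39 without the first and the second HEK293FT library of day 14, 55 without the first HAP1 library of day 0 and 168 without the second of day 14. With set borders moved by 2 numbers 345 were lower and 51 higher. With a block of crossed replicate numbers 502 were lower and 513 higher, so the excess of lower sets was absent there.

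Among the 338 sets lower in HAP1, 28 had all 4 guides called lower, 68 had 3, 97 had 2, 105 had 1 and 40 had none called singly. Of the 694 guides lower in HAP1, 615 were in a set called lower. The sets higher in HAP1 rested on fewer guides, since 4 had all 4 guides called, 1 had 3, 9 had 2, 33 had 1 and 50 none. Of the complete sets, 240 of 329 called lower had all 4 differences below 0, as had 10.6% of all 4044 complete sets. All 4 differences were above 0 in 80 of 97 called higher and in 14.7% of all complete sets. The direction of the set is part of these counts, so they describe the sets and test nothing.

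Within a set the numbers mostly followed the change in HAP1, which fell from each place to the next in 3188 of the 4044 complete sets, or 78.8%. In HEK293FT 202 complete sets, or 5.00%, were so ordered. The median difference was 0.29 at the first place, 0.09 at the second, -0.04 at the third and -0.16 at the fourth. The called lower guides numbered 60, 116, 207 and 311, and the called higher ones 88, 20, 14 and 5. The median change in HEK293FT was between -0.05 and -0.03 at all 4 places. The order in the difference thus comes with the order of the numbers in HAP1, whose origin is not documented, and nothing was drawn from it.

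Of the complete sets whose 4 guides all had a difference of 1 sign, the set from gID_04245 to gID_04248 had the lowest. Its mean signal in HAP1 went from 52.3 and 109 to 1.90 and 4.26. In HEK293FT it went from 115 and 126 to 92.6 and 111, a change of -0.25 ± 0.53 that was not called. The difference was -4.48 ± 0.75 (SE, n = 2 libraries per group; limma adjusted p = 0.00144). The spread between the HAP1 libraries was wide at both days, and with 10 added to every signal the difference was -2.46, no longer the lowest, since that of the set from gID_12501 to gID_12504 was then -3.34.

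The set from gID_12501 to gID_12504 was more abundant and more precise. It went from 309 and 390 to 15.1 and 9.58 in HAP1 and from 454 and 488 to 312 and 307 in HEK293FT. The difference was -4.24 ± 0.23 (limma adjusted p = 2.3e-07), and all 4 guides were called, with differences of -3.64, -3.93, -4.43 and -4.98. The set from gID_15249 to gID_15252 went from 432 and 398 to 24.4 and 33.3 in HAP1 and from 426 and 447 to 311 and 367 in HEK293FT. Its difference was -3.49 ± 0.18, again with 4 guides called.

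In other sets a clear fall in HEK293FT accompanied a deeper one in HAP1. The set from gID_06169 to gID_06172 went from 392 and 454 to 116 and 117 in HEK293FT and from 284 and 357 to 8.21 and 7.91 in HAP1. Its changes were -1.86 and -5.31, both called, and the difference was -3.44 ± 0.16. In HEK293FT its 4 guides had changes from -2.77 to -0.65. The set from gID_13161 to gID_13164 had changes of -1.84 in HEK293FT and -5.59 in HAP1. One of its guides, gID_13161, had changes of -3.68 in HEK293FT and -5.27 in HAP1, and its own difference of -1.59 ± 0.88 was not called.

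The remaining sets of the 8 lowest were scarce at day 0. The set from gID_07677 to gID_07680 had a difference of -3.83 ± 0.47. The sets from gID_02589 to gID_02592 and from gID_08945 to gID_08948 differed by -3.44 ± 0.77 and -3.41 ± 0.78. Without either HEK293FT library of day 0, or without the second of day 14, neither of these passed the limma threshold, with adjusted p between 0.0990 and 0.150. The former missed it also under a minimum signal of 50 (limma adjusted p = 0.0552), and the latter with crossed replicate numbers (0.0616).

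The set with the highest difference rose in HAP1. From gID_08089 to gID_08092 the mean signal went from 78.4 and 105 to 402 and 318 in HAP1 and from 123 and 101 to 79.8 and 91.2 in HEK293FT. All 4 guides were called, and the difference was 2.36 ± 0.21 (limma adjusted p = 9.63e-06). The set from gID_09765 to gID_09768 rose in HAP1 from 579 and 482 to 1207 and 1236 and stood at 450 and 468, then 390 and 400, in HEK293FT. Its difference was 1.42 ± 0.14, with 4 guides called. The sets from gID_12221 to gID_12224, gID_13853 to gID_13856, gID_07233 to gID_07236 and gID_00905 to gID_00908 rose in HAP1 with differences of 1.47, 1.34, 1.05 and 0.94, and none of them was called in HEK293FT.

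In 2 sets the lines moved in opposite directions, each past the limma threshold. The set from gID_01081 to gID_01084 rose in HAP1 from 508 and 388 to 1038 and 1076, a change of 1.25 ± 0.12. In HEK293FT it fell from 367 and 347 to 231 and 257, a change of -0.55 ± 0.12 (adjusted p = 0.0312). Its difference was 1.80 ± 0.17 and all 4 guides were called. The set from gID_08097 to gID_08100, close in number to the one that rose most, had changes of 0.43 in HAP1 and -0.46 in HEK293FT and a difference of 0.88 ± 0.13.

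Sets called as falling in HEK293FT and higher in the difference numbered 12. Of 78 sets that fell in HEK293FT 63 fell in HAP1 too, where 41 were lower in HAP1, 1 was higher and 21 had no called difference. The exception was the set from gID_06365 to gID_06368, at 401 and 418 and then 94.5 and 96.4 in HEK293FT, against 498 and 443 and then 327 and 338 in HAP1. Its changes were -2.10 and -0.50, both called, and the difference was 1.60 ± 0.12. Within it gID_06366 and gID_06367 were called, at 3.07 and 1.79, while gID_06368 had changes of -1.75 in HAP1 and -2.56 in HEK293FT.

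The set from gID_04389 to gID_04392 had changes of -1.14 in HEK293FT and 0.12 in HAP1. The HEK293FT change rested mostly on gID_04391, which fell by 3.27, while the other guides of the set had changes from -0.48 to -0.37 there, none of them called. In the difference gID_04389 was called too, at 1.02 ± 0.22, while gID_04390 at 0.76 and gID_04392 at -0.13 were not. With the median of the guides in place of the mean the difference of this set was 0.65, against 1.26 ± 0.15. The sets from gID_01237 to gID_01240 and gID_11773 to gID_11776 had differences of 0.83 ± 0.17 and 0.73 ± 0.14 and changes of -0.84 and -0.81 in HEK293FT. In each a single guide was called in the difference. As falling in HEK293FT, gID_01238 was called in the former, and gID_11775 and gID_11776 in the latter, at -0.81 and -1.91. The set from gID_14409 to gID_14412 had a difference of 0.43 ± 0.12 at a limma adjusted p of 0.0448, and missed the threshold in 14 of 24 other settings.

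The 21 sets that fell in both lines without a called difference had differences from -1.60 to 0.15, with a median of -0.16 and 15 of them below 0. The 3 with the smallest differences, by rule, were those from gID_12105 to gID_12108, gID_14953 to gID_14956 and gID_05669 to gID_05672. The last went from 472 and 535 to 305 and 290 in HAP1 and from 529 and 549 to 360 and 303 in HEK293FT. Its changes were -0.76 and -0.71, and the difference was -0.05 ± 0.14. The other two had differences of 0.03 ± 0.14 and 0.04 ± 0.14. With errors of this size, smaller differences between the lines could not be told from none.

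Sets close in number had more alike differences than sets further apart. Across sets, the correlation of the difference with that of the set 1 place on was 0.165, of 2 places on 0.157, of 10 places on 0.050 and of 50 places on -0.031. These are descriptions over sets of 1 group of libraries, with no test. Of the 338 sets 121 had a neighbour that was called lower, and 70 adjacent pairs were both called, against 27 pairs 20 places apart and 23 pairs 50 places apart. Runs of at least 3 called sets in a row numbered 10, found after the values were seen. No run of called higher sets was longer than 2.

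The 2 longest runs held 6 sets each. From gID_06157 to gID_06180 the differences ranged from -3.44 to -0.93, with HAP1 changes from -5.31 to -1.45 and HEK293FT changes from -1.87 to -0.11. From gID_11965 to gID_11988 they ranged from -2.69 to -1.15, with HAP1 changes from -5.72 to -1.38 and HEK293FT changes from -3.03 to -0.23. A run of 5 sets from gID_09441 to gID_09460 had HAP1 changes from -3.72 to -1.24 and HEK293FT changes from -1.30 to -0.25. The run of 4 sets from gID_08025 to gID_08040 had HEK293FT changes between -0.29 and -0.03, while those of HAP1 reached -3.62. Among the runs of 3 sets, HEK293FT changes went from -0.29 to -0.003 in the run from gID_06625 to gID_06636. They went from -0.26 to 0.16 from gID_11997 to gID_12008, and from -0.32 to 0.05 from gID_02865 to gID_02876. The 5th percentile of the HEK293FT change was -0.34 over all targeting sets and -0.27 over those scarce at day 0, so the lowest of these changes were not all close to 0. What neighbouring numbers share was not tested, as the numbers could not be paired with targets.

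The targeting sets fell into a scarce and an abundant class at day 0, with no set between a mean signal of 179 and 248. The border of 200 was set after the day 0 levels were seen. The abundant class held 505 sets, or 12.1%, with a median signal of 456, near the 431 of the non-targeting guides. The scarce class held 3669 sets with a median of 113. In the abundant class 95 sets were lower in HAP1, or 18.8%, and 26 higher, or 5.15%. In the scarce class 243 were lower, or 6.62%, and 71 higher, or 1.94%. The 243 numbered 138 without either HEK293FT library of day 0 and 144 without the second of day 14. Over all sets of a class the median SE of the difference was alike, at 0.140 in the abundant and 0.135 in the scarce class. The SE was not alike among the 8 sets named as lowest, at 0.47 to 0.78 in scarce and 0.16 to 0.28 in abundant ones.

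Sets of both classes fell in HAP1, and a smaller share of the scarce class fell in HEK293FT. In HAP1 155 abundant sets fell, or 30.7%, and 417 scarce ones, or 11.4%. In HEK293FT 73 abundant sets fell, or 14.5%, and 5 scarce ones, or 0.136%. The shared spread of the joint fit bears on that last count, since a separate limma fit for each line called 83 abundant and 35 scarce sets in HEK293FT. Among sets with HAP1 changes of -4 to -3, the joint fit called 12 of 14 abundant and 0 of 27 scarce ones in HEK293FT. Their HEK293FT medians were -1.19 and -0.92. By size alone, 31 abundant sets, or 6.14%, and 20 scarce sets, or 0.545%, changed by less than -1 in HEK293FT. In HAP1 these were 77, or 15.2%, and 191, or 5.21%.

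At a like loss in HAP1 the abundant sets had the lower medians in HEK293FT. Among sets with a HAP1 change below -2, the 48 abundant ones had a median of -3.07 in HAP1 and -1.11 in HEK293FT, and the 81 scarce ones -2.87 and -0.62. Among those between -3 and -2 in HAP1, the HEK293FT medians were -0.83 over 23 abundant and -0.41 over 46 scarce sets. Among those between -2 and -1 they were -0.39 over 29 and -0.23 over 110. The difference between the lines was called in 42 of the 48 and in 65 of the 81. The difference between the classes was not tested, and what sets them apart is not given in the sources used here.

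The lines already differed at day 0 in the scarce class. There HAP1 less HEK293FT had a median of -0.29, with 2326 of 3669 sets called lower in HAP1 by limma. The abundant sets had a median of -0.04 and the non-targeting guides of -0.002. Tested singly by limma at day 0, 0 of the 16572 targeting guides were called lower in HAP1 and 0 higher. Within a class the sets with the lowest HAP1 changes had the lowest day 0 values in HAP1 relative to HEK293FT. For HAP1 changes below -2 the day 0 gap was -0.46 in the scarce and -0.22 in the abundant class, against -0.29 and -0.02 for sets that changed by at most 0.5. The 2 HAP1 libraries of day 0 also parted for these sets. The second lay above the first in 81 of the 81 scarce sets, by a median of 0.59, and in 43 of the 48 abundant ones, by 0.23, against medians of 0.02 in both classes for sets that changed by at most 0.5. In HEK293FT the second library of day 14 lay above the first in 77 of those 81 scarce sets, by a median of 0.47, and in 24 of the 48 abundant ones. The day 0 values of the strongest members thus depended on the library, and the part of this in the differences between the lines was not tested.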

How the data were processed

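The authors deposited 1 table of normalised signal per cell line, and how they normalised it is not given in the sources used here. Per the submitters' processing notes the tools include cutadapt 1.13 and Bowtie 1.1.2 and the build GRCh38, with no roles stated. Rows without a guide name (1 in HAP1, 120 in HEK293FT) were left out and repeated names (17 and 16) averaged. Log2 signal was scaled per library on the mean deviation of the non-targeting guides, trimmed by 30% on each side. A minimum mean signal of 10 removed 0 guides. A mean for each of 4 groups over 8 libraries (4 residual degrees of freedom) was estimated in limma 3.58.1 (R 4.3.3), with a trended variance prior and Benjamini-Hochberg adjustment over all guides or all sets. The labels' treatment protocol describes separate infection replicates. Sets take at least 3 of 4 consecutive guide numbers. Set signals are geometric means on the deposited scale.

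Named guides were the 10 lowest and 10 highest differences among called targeting guides with a signal of at least 50 at day 0 in each line and pairings of the lines apart. Named sets were the 8 lowest and 8 highest called complete sets with guides of 1 sign, the sets called in opposite directions, the 3 most alike of those called lower in both lines, and the 5 lowest in HEK293FT called higher. Members, lists and alternatives were chosen with earlier results of these data known. The guide fit was tested on simulated data with 1 spread per guide over all 8 libraries. The set fit and unequal spread between groups were not simulated. Alternatives changed the scaling, pseudocount, minimum signal, variance model, block, set definition and libraries. No intervals from counting could be given.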

Additional observations from a re-analysis of the deposited data

Results flagged for a closer look

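The results below are those in which the day effect differed between HAP1 and HEK293FT by the limma interaction test itself, given as log2 differences, HAP1 less HEK293FT. Over all guides 695 were lower and 131 higher in HAP1, and over all sets 339 were lower and 98 higher.

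The guides named as lower in HAP1 were gID_12624 (-5.72), gID_07680 (-5.40), gID_13164 (-5.05), gID_07679 (-5.05), gID_04247 (-5.00), gID_12504 (-4.98), gID_04248 (-4.92), gID_11904 (-4.76), gID_04228 (-4.68) and gID_06320 (-4.45). Those named as higher were gID_04391 (3.42), gID_08089 (3.08), gID_06366 (3.07), gID_08090 (2.72), gID_08091 (2.22), gID_13011 (2.22), gID_01082 (2.05), gID_13853 (1.98), gID_01083 (1.96) and gID_12009 (1.88).

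Sets named as lower in HAP1, by their first guide, were gID_04245 (-4.48), gID_12501 (-4.24), gID_07677 (-3.83), gID_13161 (-3.76), gID_15249 (-3.49), gID_06169 (-3.44), gID_02589 (-3.44) and gID_08945 (-3.41). Sets named as higher were gID_08089 (2.36), gID_01081 (1.80), gID_06365 (1.60), gID_12221 (1.47), gID_09765 (1.42), gID_13853 (1.34), gID_04389 (1.26), gID_07233 (1.05), gID_00905 (0.94), gID_08097 (0.88), gID_01237 (0.83), gID_11773 (0.73) and gID_14409 (0.43).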

How the results depend on the processing

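No named guide or set with a called difference reversed under any alternative run. The labels speak of separate infection replicates but do not say whether a number marks 1 infection at both days. The numbers were not taken to pair the libraries, since same-numbered libraries deviated oppositely between days, with correlations across guides of -0.44 in HAP1 and -0.33 in HEK293FT. The replicate block gave 497 lower and 39 higher guides, 271 lower and 27 higher sets and 0 called non-targeting guides. Crossing the numbers between days, a pairing chosen after seeing the data, gave 1277 lower and 864 higher guides, 502 lower and 513 higher sets, 56 called non-targeting guides, and 131 abundant and 90 scarce sets falling in HEK293FT. A minimum difference of 1 left 201 lower and 8 higher sets, 3 non-targeting guides, and 31 abundant and 1 scarce set falling in HEK293FT. Without a variance trend 2 non-targeting guides were called. Set borders moved by 2 gave 51 higher sets. The 5 scarce sets falling in HEK293FT were 24 with weights per line, 35 with separate fits, 9 without a variance trend, 10 with a pseudocount of 10, 3 with scaling on targeting guides, 2 with set medians and 1 with total signal scaling.

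With each library left out in turn, the lone library of a group being assumed to vary like the others, lower guides ranged from 386 to 882 and higher guides from 54 to 280. Lower sets ranged from 215 to 366 and higher sets from 30 to 168. Called non-targeting guides ranged from 1 to 9, and abundant and scarce sets falling in HEK293FT from 47 to 80 and from 0 to 16. The causes were not tested, and depth is unknown.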
